A study of Mus musculus with 5 samples.

Results

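The unfolded protein response and the integrated stress response were followed through 36 genes in mouse gut RNA, out of 19938 genes that had a probe set naming them alone. The genes were a chosen list. It held 16 chaperones and folding enzymes of the endoplasmic reticulum, 4 genes of its degradation pathway, 4 stress sensors, and 12 genes made up of Atf4 and genes known to be driven by it. All 36 were measured. Ero1l and Ero1lb appear in the platform annotation under their present symbols Ero1a and Ero1b. Where a gene had more than 1 such probe set, that of the highest mean stood for it. Most of the 36 differed little between the groups, and the widest differences were those of Slc7a11, Herpud1, Dnajb9, Aldh1l2 and Asns.

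Affymetrix Mouse Gene 1.0 ST arrays were used for 5 groups of male ddY mice aged 5 weeks, with 1 array in each group. Each group received a pair of oral administrations 0.5 hours apart, and the gut was collected 4 hours after the later one. The control group GA+GA received gum arabic, the vehicle, on both occasions. LG21+GA received the probiotic strain Lactobacillus gasseri OLL2716 (LG21) and gum arabic. The other 3 groups shared aspirin and differed in the agent given with it, which was gum arabic in GA+Asp, the mucosal protective drug teprenone in Tep+Asp, and LG21 in LG21+Asp. How many mice gave RNA to each array is not stated in the labels. With 1 array per group no difference could be set against the spread between animals, no test was possible, and no p-value is given. The 3 aspirin arrays differ in pretreatment and are not replicates of 1 group.

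Proteins made for secretion fold in the endoplasmic reticulum. When unfolded protein accumulates there, the sensors ATF6, IRE1 and PERK raise the output of chaperones, folding enzymes and degradation factors, and PERK slows translation by phosphorylating eIF2alpha. Kinases that sense amino acid shortage, haem shortage or viral RNA phosphorylate the same protein, and the shared outcome, the integrated stress response, favours translation of ATF4, a transcription factor for amino acid uptake and synthesis. The gastric epithelium is rich in secretory cells, such as the enzyme-secreting chief cells, in which the endoplasmic reticulum is extensive.

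The arms are known for different control sequences. ATF6 and XBP1 act at the endoplasmic reticulum stress response element (ERSE) and its short form ERSE-II, and ATF4 at the C/EBP-ATF response element (CARE). The letters searched were CCAAT, any 9 bases and CCACG for ERSE, ATTGG, any 1 base and CCACG for ERSE-II, TGACGTGG for the unfolded protein response element (UPRE) and TGATGNAA for CARE, on both strands, in the 250 bases before each annotated start. The last 5 letters of ERSE and of ERSE-II are the same, and no match of one overlapped a match of another in these genes. Starts and sequences came from RefSeq on build GRCm38.p6, which held an entry for 31 of the 36 genes. Aldh1l2, Atf6, Ern2, Hyou1 and Manf were not among them.

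ERSE matches were found in 9 of the 31 genes, against 0.113% of the 32851 promoters in the table. They were Calr, Canx, Creld2, Dnajc3, Ero1lb, Hsp90b1, Hspa5 and Pdia6, which are 8 of the 14 chaperone genes with an entry, and Syvn1 of the degradation group. ERSE-II was found in Herpud1 alone of the 31 genes and in 0.0304% of promoters. CARE matches were found in Asns, Chac1 and Slc7a11, which are 3 of the 11 ATF4 genes with an entry, and in Herpud1, against 3.45% of promoters. UPRE was matched in none of the 31 genes and in 0.563% of promoters. A gene was counted once if any of its entries matched, while the background counts every promoter, so the units differ. The genes were also chosen as genes of these responses, so a higher share among them is no test. A match is a string of letters in this window and was not measured as a bound site.

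The promoters of 5 genes are shown because they show ERSE alone (Hspa5), CARE alone (Slc7a11 and Asns), ERSE-II with CARE (Herpud1) and no match (Dnajb9), and all but Hspa5 were among the genes with the widest ranges over the arrays. Each runs 5′ to 3′ along the gene's strand and ends 1 base before the annotated start, and capitals mark the matches.
Hspa5, chr2:34771840-34772089, plus strand: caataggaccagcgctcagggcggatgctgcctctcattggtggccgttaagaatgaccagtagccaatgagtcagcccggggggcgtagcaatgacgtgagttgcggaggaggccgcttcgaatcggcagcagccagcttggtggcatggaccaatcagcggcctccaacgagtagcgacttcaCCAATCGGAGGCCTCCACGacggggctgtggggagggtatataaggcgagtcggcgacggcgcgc
Herpud1, chr8:94386179-94386428, plus strand: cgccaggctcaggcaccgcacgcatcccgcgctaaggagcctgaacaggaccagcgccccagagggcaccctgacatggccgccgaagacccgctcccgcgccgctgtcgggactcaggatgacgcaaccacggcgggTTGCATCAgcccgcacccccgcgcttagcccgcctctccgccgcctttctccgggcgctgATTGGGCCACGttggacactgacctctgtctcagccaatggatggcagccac
Dnajb9, chr12:44210069-44210318, minus strand: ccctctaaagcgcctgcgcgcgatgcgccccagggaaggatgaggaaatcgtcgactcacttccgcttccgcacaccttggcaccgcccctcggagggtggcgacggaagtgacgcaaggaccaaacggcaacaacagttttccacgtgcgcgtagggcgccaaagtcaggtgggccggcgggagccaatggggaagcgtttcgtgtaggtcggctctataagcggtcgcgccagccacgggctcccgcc
Slc7a11, chr3:50443614-50443863, minus strand: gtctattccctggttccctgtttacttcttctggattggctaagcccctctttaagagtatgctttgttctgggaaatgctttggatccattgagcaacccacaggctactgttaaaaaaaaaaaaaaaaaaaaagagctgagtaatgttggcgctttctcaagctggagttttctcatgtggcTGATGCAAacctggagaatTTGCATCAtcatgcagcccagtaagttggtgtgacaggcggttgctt
Asns, chr6:7693210-7693459, minus strand: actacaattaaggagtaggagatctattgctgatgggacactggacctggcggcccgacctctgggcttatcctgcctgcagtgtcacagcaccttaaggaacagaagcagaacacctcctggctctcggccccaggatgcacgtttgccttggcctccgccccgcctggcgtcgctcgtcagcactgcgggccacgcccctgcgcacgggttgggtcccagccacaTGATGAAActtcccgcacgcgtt
In Hspa5 the capitals are an ERSE on the gene's own strand, from 65 to 47 bases before the start. In Herpud1 the first capitals are a CARE on the opposite strand, from 112 to 105 bases before the start, and the second are the ERSE-II, from 52 to 42. Slc7a11 held CARE letters on both strands, from 66 to 59 and from 47 to 40 bases before the start. The Asns match lay from 23 to 16 bases before the start and read TGATGAAA, while the others read TGATGCAA.

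**Figure D1:**
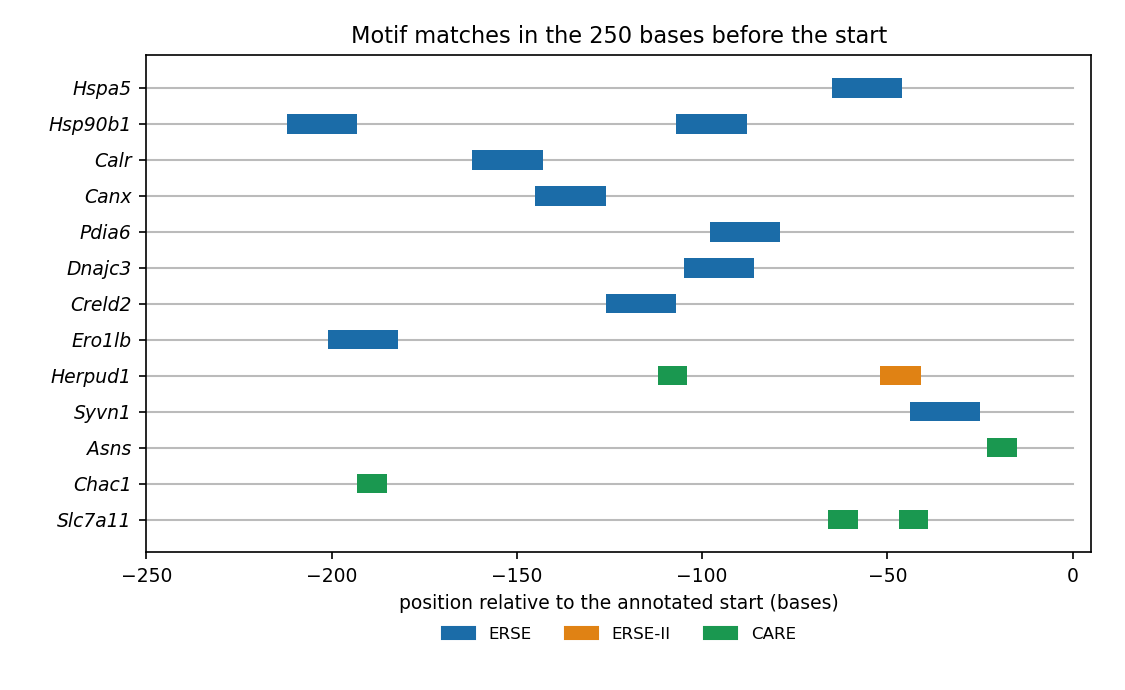
Motif matches in the 250 bases before the annotated start of the 13 genes that held any, with position in bases on the horizontal axis and 1 line per gene. Blue boxes are ERSE, the orange box ERSE-II and green boxes CARE; ERSE matches lie in chaperone genes and Syvn1, and CARE matches in Asns, Chac1, Slc7a11 and Herpud1.

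The deposited values are on a log2 scale, on which 1 unit is a 2-fold difference, and array medians lay between 6.94 and 6.98. The filter on low values was the median of all genes, a mean of 7.41 over the arrays. It was passed by 9969 genes and by 35 of the 36, Trib3 being the exception. On every array each of the 36 stood above Xist, a transcript that male tissue does not express, which lay between 4.88 and 4.91. The gut label was checked against markers. The 5 surface and neck mucous cell genes had a median level between 13.29 and 13.32. For the 7 genes of the chief cell list it lay between 12.83 and 12.89. The 5 intestinal goblet cell genes had one between 7.51 and 7.61. The chief cell list was not limited to genes of chief cells alone, and on every array its median was the value of Tff2. In GA+GA its genes ran from 6.61 for Cpb1 to 13.55 for Pgc. Levels of different probe sets also reflect how well each binds, so these levels are a description and rank no cell type. Hepatocyte markers differed widely between the arrays. The median of the 17 hepatocyte genes measured was 9.55 for GA+GA, 8.70 for LG21+GA, 6.42 for GA+Asp, 7.08 for Tep+Asp and 7.96 for LG21+Asp. The 10 keratinocyte genes had a median of 7.79 in LG21+Asp and between 9.26 and 9.75 on the others. These arrays hold bulk tissue, in which fewer cells of a type and less RNA per cell cannot be told apart.

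The range of a gene over the 5 arrays had a median of 0.11 for the 36 genes, from 0.01 for Dnajc3 to 0.52 for Slc7a11, and of 0.09 for the genes passing the filter. A difference of at least 0.2 (1.15-fold) was used to count genes. A range of 0.2 or more was reached by 5 of the 36 (13.9%), close to the 12.1% of genes passing the filter. The 5 were Slc7a11, Herpud1, Dnajb9, Aldh1l2 and Asns. Exact ties between arrays were frequent, with a tied pair in 14 of the 36 genes and 63.4% of all probe sets, which limits how far equal values can be read.

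**Figure D2:**
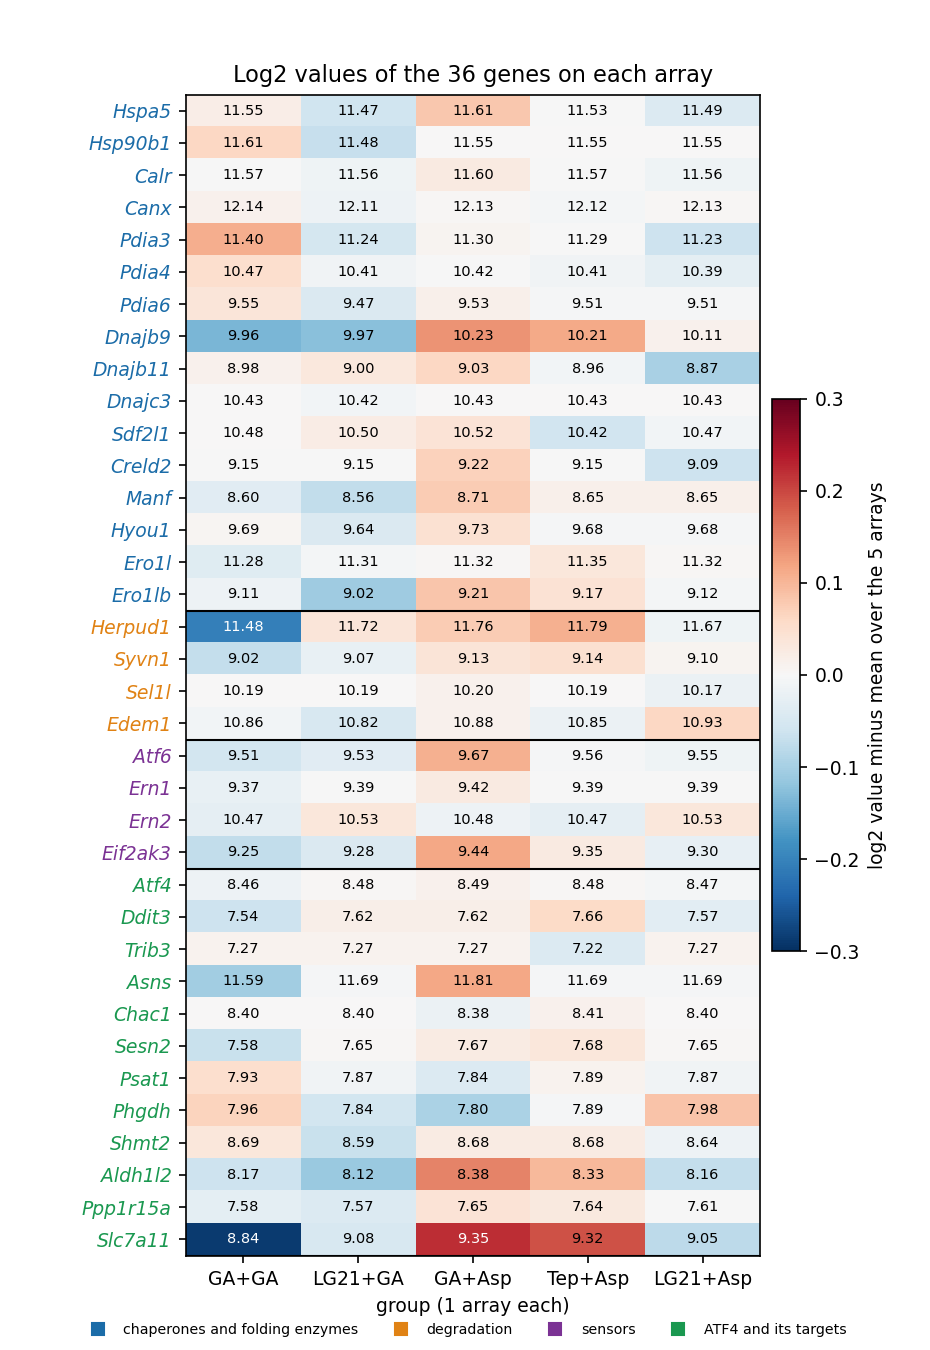
Log2 value of each of the 36 genes on each of the 5 arrays (printed in the cells), coloured by the value minus the gene's mean over the arrays, with 1 column per group. Gene names are coloured by class; Slc7a11 runs from 8.84 in GA+GA to 9.35 in GA+Asp, while Canx, Dnajc3 and Atf4 span 0.03 or less.

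The main endoplasmic reticulum chaperones were nearly level across the arrays. Hspa5, which encodes the chaperone BiP that holds the sensors inactive, stood at 11.55 in GA+GA, 11.47 in LG21+GA, 11.61 in GA+Asp, 11.53 in Tep+Asp and 11.49 in LG21+Asp. GA+Asp was highest and LG21+GA lowest, and the arrays with and without aspirin overlapped. Hsp90b1, the HSP90 paralogue of this compartment, ran from 11.48 in LG21+GA to 11.61 in GA+GA. The lectin chaperones Calr and Canx, which hold newly made glycoproteins, spanned 0.04 and 0.03. Hyou1, an exchange factor for BiP, spanned 0.09.

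Pdia3, Pdia4 and Pdia6, which encode protein disulfide isomerases, were highest in the control. Pdia3, which works with Calr and Canx on glycoproteins, stood at 11.40 in GA+GA, 11.24 in LG21+GA, 11.30 in GA+Asp, 11.29 in Tep+Asp and 11.23 in LG21+Asp. Pdia4 had a range of 0.08 and Pdia6 also 0.08, both with the highest value in GA+GA. Hsp90b1, Canx, Pdia3, Pdia4, Pdia6 and, among the ATF4 genes, Psat1 and Shmt2 were the 7 genes strictly highest in GA+GA, where 11.8% of genes passing the filter were. With quantile normalization Canx left these, and with cyclic loess Sel1l and Trib3 joined them. In the same family, on the wider list, P4hb was highest in GA+GA too, at 11.66, with its lowest value of 11.56 in Tep+Asp. Others were not highest there. Pdia5 stood at 8.32 on 4 arrays and 8.31 in Tep+Asp, and Txndc5 was higher in LG21+GA (9.94) than in GA+GA (9.90). Txndc11 was higher in GA+Asp (8.71) than in GA+GA (8.63). The second probe set of Pdia4 stood at 5.97 on all 5 arrays and so gave no difference. Hepatocyte markers were highest in GA+GA too, and their part in these values was not tested.

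Among the co-chaperones, Dnajb9, which encodes ERdj4, a partner of BiP in degradation and in repression of IRE1, differed most. It stood at 9.96 in GA+GA, 9.97 in LG21+GA, 10.23 in GA+Asp, 10.21 in Tep+Asp and 10.11 in LG21+Asp. All 3 aspirin arrays lay above both arrays without aspirin. The difference was 0.27 with aspirin alone (GA+Asp minus GA+GA) and 0.14 with aspirin in LG21-treated mice (LG21+Asp minus LG21+GA), comparisons that share no array. Dnajb11, another BiP partner, ran from 8.87 in LG21+Asp to 9.03 in GA+Asp. Dnajc3, which encodes p58IPK, a partner of BiP first described as a kinase inhibitor, spanned 0.01, and its other probe set gave the same values. Secreted or lumenal products of the response spanned little, with ranges of 0.14 for Manf, 0.13 for Creld2 and 0.10 for Sdf2l1, each highest in GA+Asp. The oxidase genes Ero1l and Ero1lb, whose proteins recharge the disulfide isomerases, had ranges of 0.07 and 0.19. Both stood higher on the 3 aspirin arrays than on the others, an order that Ero1l lost with cyclic loess.

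Herpud1 stood out in the degradation group. It encodes a membrane protein that assembles the ubiquitin ligase complex of endoplasmic reticulum associated degradation. It stood at 11.48 in GA+GA, 11.72 in LG21+GA, 11.76 in GA+Asp, 11.79 in Tep+Asp and 11.67 in LG21+Asp. The control was the low array, and LG21 without aspirin lay among the aspirin arrays. Against GA+GA the difference was 0.24 in LG21+GA, 0.28 in GA+Asp, 0.31 in Tep+Asp and 0.19 in LG21+Asp. Syvn1, the ubiquitin ligase HRD1 itself, ran from 9.02 in GA+GA to 9.14 in Tep+Asp, with all 3 aspirin arrays above the other 2. Its partner Sel1l spanned 0.03, and Edem1, which delivers misfolded glycoproteins, ran from 10.82 in LG21+GA to 10.93 in LG21+Asp.

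Of the sensors, Eif2ak3 and Atf6 differed most. Eif2ak3, which encodes PERK, stood at 9.25 in GA+GA, 9.28 in LG21+GA, 9.44 in GA+Asp, 9.35 in Tep+Asp and 9.30 in LG21+Asp. Atf6 stood at 9.51, 9.53, 9.67, 9.56 and 9.55 in the same order. Both were highest in GA+Asp, with the 3 aspirin arrays above the other 2 by a narrow margin. Ern1, which encodes IRE1alpha, spanned 0.05. Ern2, which encodes IRE1beta, the form of mucous epithelia, spanned 0.06 and was the single gene of the 36 strictly highest in LG21+GA, against 15.5% of genes passing the filter.

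Atf4 itself stood at 8.46 in GA+GA, 8.48 in LG21+GA, 8.49 in GA+Asp, 8.48 in Tep+Asp and 8.47 in LG21+Asp, a range of 0.03. ATF4 is controlled largely through translation, which arrays do not measure. Ddit3, which encodes the transcription factor CHOP, stood at 7.54 in GA+GA, 7.62 in LG21+GA, 7.62 in GA+Asp, 7.66 in Tep+Asp and 7.57 in LG21+Asp. Trib3, a pseudokinase induced by CHOP and ATF4, was tied at 7.27 on 4 arrays and stood at 7.22 in Tep+Asp. Chac1, which breaks down glutathione, spanned 0.03. Sesn2, a leucine sensor, and Ppp1r15a, which encodes the eIF2alpha phosphatase subunit GADD34, spanned 0.10 and 0.07. None of these stress markers of the ATF4 arm reached a difference of 0.2 in any of the 6 comparisons.

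The widest member was Slc7a11, which encodes the cystine importer xCT and is a target of NRF2 as well as ATF4. It stood at 8.84 in GA+GA, 9.08 in LG21+GA, 9.35 in GA+Asp, 9.32 in Tep+Asp and 9.05 in LG21+Asp. GA+GA was lowest, GA+Asp and Tep+Asp were highest, and the LG21 arrays lay between them with and without aspirin. The difference with aspirin alone was 0.52, or 1.43-fold. In LG21-treated mice it was -0.03.

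Asns, asparagine synthetase, stood at 11.59 in GA+GA, 11.81 in GA+Asp and 11.69 on each of the other 3 arrays. Aldh1l2, a mitochondrial enzyme of folate metabolism, stood at 8.17 in GA+GA, 8.12 in LG21+GA, 8.38 in GA+Asp, 8.33 in Tep+Asp and 8.16 in LG21+Asp. Its high arrays were the aspirin arrays without LG21. Phgdh, the first enzyme of serine synthesis, stood at 7.96 in GA+GA, 7.84 in LG21+GA, 7.80 in GA+Asp, 7.89 in Tep+Asp and 7.98 in LG21+Asp. Psat1, the next enzyme, was lowest in GA+Asp as well, at 7.84 against 7.93 in GA+GA. Shmt2, which passes a carbon from serine to folate in mitochondria, ran from 8.59 in LG21+GA to 8.69 in GA+GA. Psph, the last enzyme of serine synthesis and on the wider pathway list, stood at 7.63 in both GA+GA and GA+Asp. With aspirin alone Phgdh and Psat1 differed by -0.16 and -0.09, both short of 0.2.

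**Figure D3:**
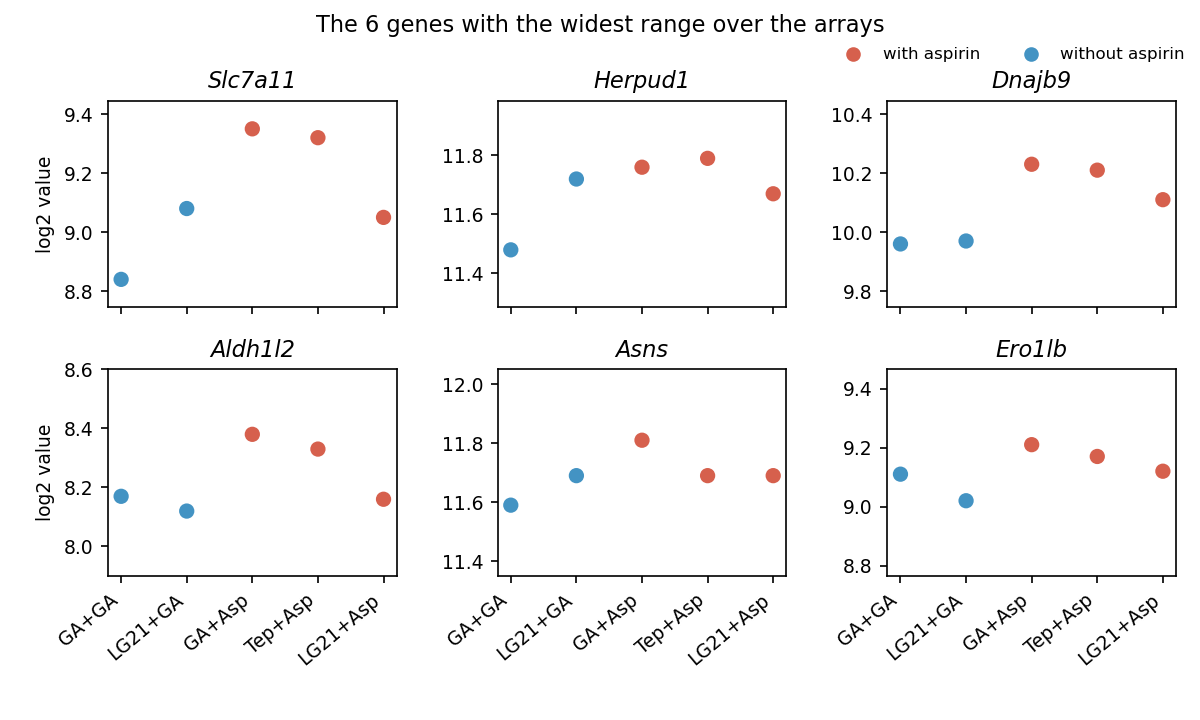
Log2 values on each of the 5 arrays for the 6 genes with the widest range, 1 point per array, red for groups with aspirin and blue for groups without; every vertical axis spans the same number of log2 units. Slc7a11 is lowest in GA+GA (8.84) and highest in GA+Asp (9.35), and Dnajb9 is the panel in which all 3 aspirin arrays lie well above the other 2.

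Aspirin alone (GA+Asp minus GA+GA) asked how the pathways differed with the drug and no pretreatment. Slc7a11 (0.52), Herpud1 (0.28), Dnajb9 (0.27), Asns (0.21) and Aldh1l2 (0.21) were at least 0.2 higher, and 0 of the 36 were that much lower. The 5 higher genes are 5 of 36, against 2.08% of genes passing the filter that were as much higher and 3.68% that were as far apart in either direction. In the other direction 1.60% were at least 0.2 lower. The median over the 36 was 0.04, against 0.013 for the genes passing the filter, and 25 lay above 0, where 58.3% of those genes did, and 9 below, where 23.5% did. Such counts of signs depended on the normalization, as shown by a check added after the data were seen. With quantile normalization 25 of the 36 lay above 0, against 59.2% of genes passing the filter, and with cyclic loess 22, against 46.5%. The ATF4 group held 3 of the 5, and the chaperone and degradation groups 1 each. Asns and Aldh1l2 lay at the edge of the threshold, and with cyclic loess normalization 3 genes were at least 0.2 apart.

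Marker lists of other cells differed in this comparison too. The 17 hepatocyte genes had a median difference of -3.05, with 16 below 0, and the 6 skeletal muscle genes one of 0.30, with 5 above 0 and none below. The 5 proliferation genes were all lower, with a median of -0.42, and the 10 keratinocyte genes had one of -0.21, with 8 below 0. Bhlha15, a chief cell transcription factor of the secretory programme, stood at 9.86 in GA+GA, 9.72 in LG21+GA, 10.14 in GA+Asp, 9.98 in Tep+Asp and 9.88 in LG21+Asp, while the chief cell list as a whole had a median difference of 0.01. The part of these lists in the values of the 36 genes was not tested. Slc7a11 was lowest where the hepatocyte median was highest (GA+GA) and highest where it was lowest (GA+Asp), with Tep+Asp next to GA+Asp in both and the LG21 arrays in the middle. Between the LG21 arrays the order was not opposite. The hepatocyte median was higher in LG21+GA than in LG21+Asp (8.70 against 7.96), and so was Slc7a11 (9.08 against 9.05).

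LG21 alone (LG21+GA minus GA+GA) asked how the pathways differed with the strain and no aspirin. Herpud1 (0.24) and Slc7a11 (0.24) were at least 0.2 apart, 2 of 36, against 2.42% of genes passing the filter. Both were higher, as were 1.00% of those genes, and 0 were as much lower, where 1.41% were. Of the 16 chaperone genes 11 lay below 0 and 4 above, with a median of -0.03. Pdia3 (-0.15) and Hsp90b1 (-0.13) were the lowest. With quantile normalization 10 chaperone genes lay below 0 and 5 above, where 54.4% of genes passing the filter lay above. With cyclic loess 12 lay below and 4 above, where 56.1% of genes passing the filter lay below and 43.9% above. In all, 17 of the 36 lay below 0, where 32.3% of genes passing the filter did, and 15 above, where 46.4% did. With quantile normalization 16 lay above 0, against 54.4%, and with cyclic loess 15, against 43.9%. For hepatocyte genes the median here was -0.67 (16 of 17 below 0) and for proliferation genes -0.21 (5 of 5 below 0). It was -0.03 for the chief cell list (6 of 7 below 0), -0.02 for keratinocyte genes and -0.01 for skeletal muscle genes. The part of these lists in the values was not tested. The GA+GA array enters this comparison and aspirin alone, so the shared low control value of Slc7a11 and Herpud1 enters both.

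LG21 before aspirin (LG21+Asp minus GA+Asp) is the comparison nearest to the series' title. Slc7a11 (-0.31) and Aldh1l2 (-0.22) were at least 0.2 lower and 0 of the 36 as much higher, where 1.19% of genes passing the filter were. That is 2 of 36, against 3.66% of genes passing the filter that were as far apart and 2.47% that were as much lower. With quantile normalization 1 gene remained that far apart, Aldh1l2 being at -0.19. In the deposited scaling 26 of the 36 lay below 0, against 58.2% of genes passing the filter, and 7 above 0, against 23.7%. With quantile normalization 22 lay below 0, against 44.4%, and with cyclic loess 26, against 47.4%. Dnajb11 (-0.15), Eif2ak3 (-0.14), Creld2 (-0.13), Hspa5 (-0.12), Atf6 (-0.12) and Asns (-0.12) were among those below 0. Phgdh (0.18) was the highest. Marker lists differed here as well, with a median of 1.44 for hepatocyte genes (16 of 17 above 0), -1.30 for keratinocyte genes (10 of 10 below 0) and -0.29 for skeletal muscle genes (5 of 6 below 0), and their part in these values was not tested. The comparison shares the GA+Asp array with aspirin alone, with the opposite sign.

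Teprenone before aspirin (Tep+Asp minus GA+Asp) gave no member at least 0.2 apart, 0 of 36, where 2.62% of genes passing the filter were, 1.43% higher and 1.18% lower. Asns (-0.12), Atf6 (-0.11) and Sdf2l1 (-0.10) were lowest and Phgdh (0.10) highest. Here too 26 of the 36 lay below 0, against 51.8% of genes passing the filter, and 8 above, against 28.9%. With quantile normalization 21 lay below 0, against 48.9%, and with cyclic loess 18, against 43.2%, so the imbalance depended on the scaling. The marker medians were 0.58 for hepatocyte, 0.82 for keratinocyte and -0.29 for skeletal muscle genes, and their part was not tested. Slc7a11 differed by -0.04 and Dnajb9 by -0.02, so both lay close to their values with aspirin alone.

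LG21 against teprenone, both with aspirin (LG21+Asp minus Tep+Asp), had 1 of 36 at least 0.2 apart, Slc7a11 at -0.27, against 2.66% of genes passing the filter. It was lower, as were 1.87% of those genes, and 0 were as much higher, where 0.792% were. Of the 36, 23 lay below 0, against 47.4%, and 7 above, against 30.9%. With quantile normalization 18 lay below 0 and 18 above, against 39.0% and 60.6%, and with cyclic loess 20 and 16, against 46.0% and 54.0%. Aldh1l2 (-0.17) and Herpud1 (-0.12) followed. The marker medians were 0.89 for hepatocyte and -2.16 for keratinocyte genes, and their part was not tested. With aspirin in LG21-treated mice (LG21+Asp minus LG21+GA) 0 of 36 were at least 0.2 apart, where 3.08% of genes passing the filter were, 0.752% higher and 2.33% lower. Of the 36, 18 lay above 0, against 33.9% of those genes, and 12 below, against 44.6%. With quantile normalization 27 lay above 0, against 64.7%, and with cyclic loess 25, against 54.9%. The marker medians were -0.70 for hepatocyte and -1.55 for keratinocyte genes, and their part was not tested. Dnajb9 (0.14), Phgdh (0.14) and Edem1 (0.11) were the highest and Dnajb11 (-0.13) the lowest.

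Chaperones and ATF4 targets were then set side by side. With aspirin alone the 16 chaperone genes had a median of 0.04, with an interquartile range from -0.02 to 0.06, and the 12 ATF4 genes a median of 0.05, with one from -0.01 to 0.12. The chaperone median minus the ATF4 median ran from -0.03 to 0.01 over the 6 comparisons. In LG21 alone they were -0.03 and 0.00, in LG21 before aspirin -0.05 and -0.03, and in teprenone before aspirin -0.02 and -0.01. In LG21 against teprenone both rounded to -0.02, and with aspirin in LG21-treated mice they were 0.01 and 0.00. With aspirin alone ATF4 genes ran from -0.16 (Phgdh) to 0.52 (Slc7a11) and chaperone genes from -0.10 (Pdia3) to 0.27 (Dnajb9). In the same comparison the 4 sensors had a median of 0.11 and the 4 degradation genes of 0.06. All 8 were above 0 in the deposited scaling, where 58.3% of genes passing the filter were. With quantile normalization 3 of the 4 were above 0 in each class, against 59.2% of genes passing the filter. With cyclic loess 3 sensors and 2 degradation genes were, against 46.5%. Classes of 4 genes are too small to tell these counts from the shares.

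**Figure D4:**
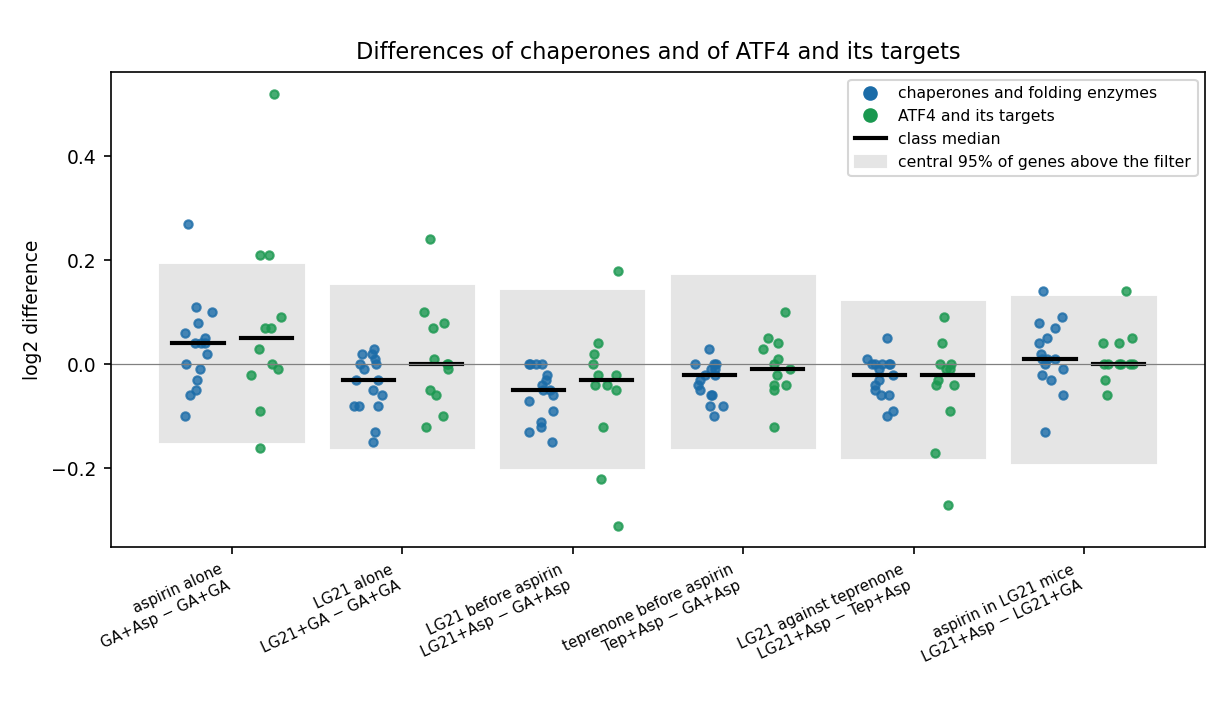
Log2 differences of the 16 chaperone genes (blue) and the 12 ATF4 genes (green) in the 6 comparisons, 1 point per gene, with black bars at the class medians and grey boxes over the central 95% of genes passing the filter. The medians of the classes lie within 0.03 of each other in every comparison, and Slc7a11 is the top point with aspirin alone (0.52) and the lowest with LG21 before aspirin (-0.31).

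The LG21 by aspirin interaction is the aspirin difference in LG21-treated mice minus that in vehicle-treated mice. It was -0.55 for Slc7a11, -0.32 for Herpud1, -0.21 for Asns and 0.31 for Phgdh. The median over the 36 was -0.03 and that of the genes passing the filter -0.028. Both aspirin differences were above 0 in 12 of the 36, among them Dnajb9, Manf, Ero1lb, Syvn1, Eif2ak3 and Atf6, and both below 0 in 2, against 20.9% and 12.1% of genes passing the filter. They were of opposite sign in 15, against 32.5% of those genes, and 1 or both were 0 in 7, against 34.5%. With quantile normalization both were above 0 in 19, against 39.9%, and with cyclic loess in 15, against 27.1%. Signs were opposite in 14 with quantile normalization, against 43.7%, and in 17 with cyclic loess, against 47.3%. Both were below 0 in 3, against 15.9%, and in 4, against 25.7%, in the same order.

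The order of the arrays was counted for each gene. GA+Asp was strictly highest in 18 of the 36, against 33.6% of genes passing the filter. These held 9 chaperone genes, 3 of the 4 sensors, 5 ATF4 genes and Sel1l. LG21+GA was strictly lowest in 12 of the 36, or 33.3%, against 16.5% of those genes, and 8 of the 12 were chaperone genes (Hspa5, Hsp90b1, Canx, Pdia6, Dnajc3, Manf, Hyou1 and Ero1lb). The 3 aspirin arrays all lay above the other 2 in 8 of the 36, against 8.68% of genes passing the filter. The 8 were Dnajb9, Manf, Ero1l, Ero1lb, Syvn1, Atf6, Eif2ak3 and Ppp1r15a. All lay below in 0 of the 36, against 3.80% of those genes. Margins were small, and counts and backgrounds both moved under the other normalizations, a check added after the data were seen. With quantile normalization the 3 aspirin arrays lay above in 13 genes, against 21.7% of genes passing the filter, and GA+Asp was highest in 16, against 26.4%. With cyclic loess the counts were 8, against 8.77%, and 16, against 24.3%, with Ern1 in place of Ero1l among the 8, and 1 gene, Sel1l, had all 3 below, against 12.6%. LG21+GA was lowest in 11 with quantile normalization, against 20.2%, and in 12 with cyclic loess, against 16.5%, without Dnajc3 in either.

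**Figure D5:**
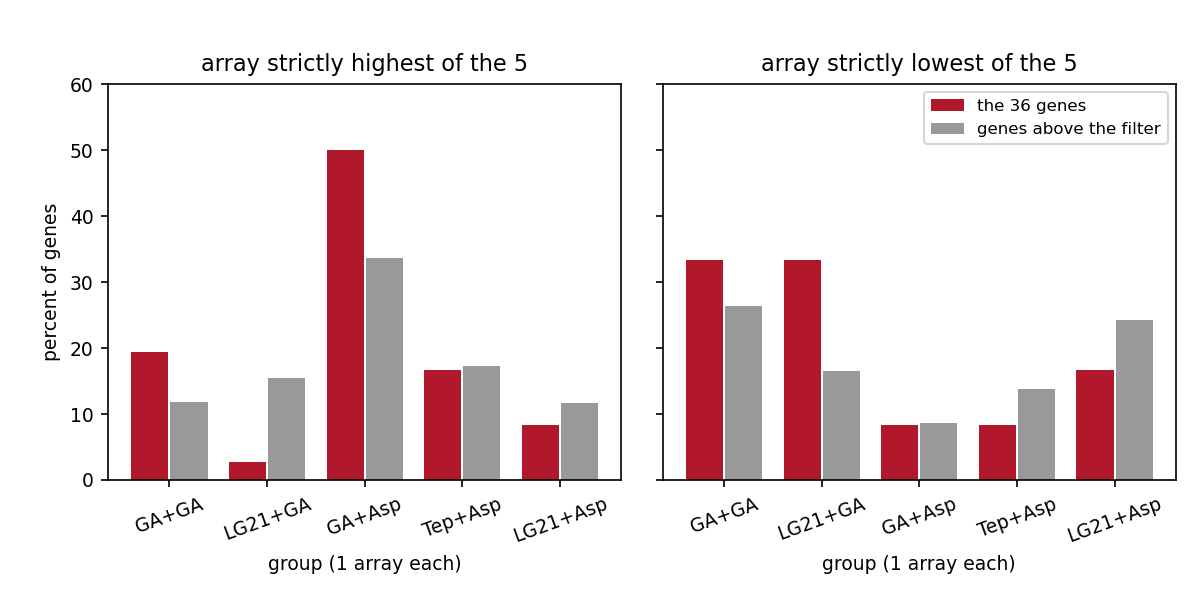
Percent of the 36 genes (red bars) and of the 9969 genes passing the filter (grey bars, the 36 included unless filtered out) for which each array was strictly the highest (left) or strictly the lowest (right) of the 5. GA+Asp was highest in 18 of the 36, against 33.6% of genes passing the filter, and LG21+GA lowest in 33.3% against 16.5%.

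Other genes of the same pathways, on a list of their own, gave few differences. Of 48 further endoplasmic reticulum genes, 0 were at least 0.2 apart in any of the 6 comparisons. Between 2.42% and 3.68% of genes passing the filter were that far apart in each. Hspa13 (0.31), Sec61b (0.23) and Creb3l2 (0.2) had the widest ranges over the 5 arrays, between arrays not paired in the 6 comparisons. These genes were named after their values were seen. The median of the 48 with aspirin alone was 0.02, with 35 above 0 and 9 below, against 58.3% and 23.5% of genes passing the filter. GA+Asp was strictly highest in 26 of the 48 and in 15 of the 44 integrated stress response genes described next, against 33.6% of genes passing the filter. Of 44 further integrated stress response genes, 2 were at least 0.2 higher with aspirin alone and 0 lower, against 2.08% and 1.60% of genes passing the filter. They were Ddit4 (0.23), a stress-induced inhibitor of mTORC1, and Slc7a5 (0.20), a subunit of the large neutral amino acid transporter, both named after their values were seen. Ddit4 stood at 8.61 in GA+GA, 8.69 in LG21+GA, 8.84 in GA+Asp, 8.69 in Tep+Asp and 8.63 in LG21+Asp. Slc7a5 had its low array in GA+GA, at 10.18, as Slc7a11 did, and ran from 10.32 to 10.40 on the other 4. Cbs, which makes cystathionine on the route to cysteine, was low in Tep+Asp, at 8.08 against 8.45 to 8.59 on the other 4 arrays. It differed by -0.52 with teprenone before aspirin and 0.42 for LG21 against teprenone, and Ddit4 by -0.22 with LG21 before aspirin. In each of these comparisons 1 of the 44 was at least 0.2 apart, against 2.62%, 2.66% and 3.66% of genes passing the filter. With LG21 alone and with aspirin in LG21-treated mice 0 of the 44 were, against 2.42% and 3.08%. Nupr1 had a range of 0.31 but reached 0.2 in none of the 6 comparisons.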

How the data were processed

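Total RNA of gut tissue was hybridised to 5 arrays, 1 for each group. The deposited values are on a log2 scale, as their range shows, and were made by the authors with RMA, a method that subtracts background, scales the arrays to each other and merges the probes of a set. Expression Console is the program in the labels, whereas the design text gives the Exon Array Computational Tool, and no version or build is stated in either. Precision is limited by there being 1 array per group.

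The table held 35557 probe sets, of which the platform annotation gave 1 symbol for 21789, several for 1621 and none for 12147. All 36 members matched the RefSeq gene table by gene identifier. The 36 members, the other gene lists and the threshold were chosen with earlier results of these data known. Values on every array are given for members at least 0.2 apart in any comparison and for Hspa5, Herpud1, Atf4, Ddit3, Asns and Trib3. Pdia3, Eif2ak3, Atf6 and Phgdh were added after their values were seen. The rest are given by range or difference. Of the other pathway genes, those at least 0.3 apart in any comparison were to be named. P4hb, Pdia5, Txndc5, Txndc11, Psph, Hspa13, Sec61b, Creb3l2, Ddit4, Slc7a5 and Nupr1 fell short of this and were named outside that rule. Differences were computed in Python 3.11.15 with pandas 2.3.3, and alternative normalizations with limma 3.58.1. The counting was tested on simulated data. Alternatives were thresholds of 0.1 and 0.3, filters, class means, the mean of all probe sets, quantile normalization and cyclic loess with 3 iterations.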

Additional observations from a re-analysis of the deposited data

How the results depend on the processing

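Counts of the 36 genes at least 0.2 apart depended on the threshold. At 0.1 they were 11 with aspirin alone, 5 with LG21 alone, 10 with LG21 before aspirin, 2 with teprenone before aspirin, 3 for LG21 against teprenone and 4 with aspirin in LG21-treated mice. At 0.3 they were 1, 0 and 1 in the first 3 of these comparisons and 0 for LG21 against teprenone. With cyclic loess 3 genes were apart with aspirin alone, and with quantile normalization 1 with LG21 before aspirin, since Asns and Aldh1l2 lie at the threshold. The share of all genes was not computed at 0.1 or 0.3, nor at 0.2 under the other normalizations. These counts therefore have no background beside them and cannot be read as an excess. Without a filter 6.58% of genes were at least 0.2 apart with LG21 before aspirin, 4.48% with teprenone before aspirin and 4.77% for LG21 against teprenone, and for the last the filter at the 75th percentile gave 1.77%. The medians of the 4 classes, and the chaperone median minus the ATF4 median, moved by at most 0.05 under each alternative run, a limit set for this purpose because no replicates give a spread. No paired analysis was possible because each group has 1 array, and for the same reason no replicate could be left out. With no replicate, no difference of any size here could be set against variation between arrays.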
